A study of Saccharomyces cerevisiae with 64 samples.

Results

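The nuclear genes for subunits of the respiratory chain and the ATP synthase were examined for peaks of Spp1 and Bre2 in yeast entering meiosis. The 39 members were taken by name from general knowledge of yeast, and are 39 of the 6002 protein-coding genes on the nuclear chromosomes of the R64 reference. They comprise 13 genes of the ATP synthase, 9 of complex IV, 9 of complex III, 3 of complex II, the 3 NADH dehydrogenases and the 2 cytochrome c genes. A gene was called occupied in a library when a deposited peak had its midpoint between 500 bp before the coding start and the end of the coding region.

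Spp1 and Bre2 are subunits of Set1C, the complex that methylates lysine 4 of histone H3, and chromatin immunoprecipitation with sequencing mapped where each was bound in 62 libraries. All strains were diploids of the SK1 background, MATa/alpha, sampled in pre-sporulation medium (SPS) and at set hours after the shift to sporulation medium (SPM, potassium acetate). Single libraries, in SPS and then after 0, 2, 4 and 6 h, came from 4 strains that were homozygous for a 13xmyc tag (leu2/LEU2 and HIS4/his4, with trp1/trp1 and ura3/ura3): SPP1-13xmyc (Spp1-myc), BRE2-13xmyc (Bre2-myc), spp1PHD{delta}-13xmyc, which lacks the PHD finger, and spp1CXXC{delta}-13xmyc, which lacks the CXXC domain. Another 3 strains, homozygous for SPP1-3xHA, gave 2 libraries at each of 0, 2, 4 and 6 h. These H3 strains were leu2/LEU2 and HIS4/his4, had lys2/lys2 with ho::LYS2/ho::LYS2, and carried ura3/ura3 and trp1-1/trp1-1, with both chromosomal H3 genes replaced (hht1{delta}::HphMX/hht1{delta}::HphMX, and a second locus labelled hht2{delta}::KanMX4/hht1{delta}::HphMX), so that their H3 came from a centromeric plasmid with HHF2, TRP1 and HHT2 as wild type, K4R or R2A. A competition series between 4.5 and 6.5 h had 8 libraries of GFP-tagged Spp1 and 10 of Spp1-myc. Its GFP samples are labelled with one SPP1-13xmyc allele and one yGFP-SPP1 allele under the CUP1-1 promoter, and its myc samples as homozygous for SPP1-13xmyc, in the marker background of the myc strains.

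Budding yeast has no proton-pumping complex I. Electrons from NADH enter its chain through the single-subunit dehydrogenases Ndi1, Nde1 and Nde2, and electrons from succinate through complex II. Ubiquinol passes them to complex III, cytochrome c carries them to complex IV, and the ATP synthase uses the proton gradient that complexes III and IV build. Sporulation in acetate depends on respiration, since acetate cannot be fermented. The PHD finger of Spp1 binds trimethylated lysine 4 of H3, a mark found near the start of transcribed genes.

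The lists held 87 to 2119 peaks, and the shortest belonged to the competition series. They carry no read counts, so read depth is unknown, and an input and an untagged-strain sample were not analysed here. Of the 56230 deposited peaks, 2787 lie on a sequence named chrXVII and could carry no gene. Whether replicates were separate cultures is not stated in the labels, and the p-values cover the spread between the sequenced samples only, which may be technical. In bulk samples a peak present in fewer cells and a weaker signal in every cell cannot be told apart. One library stood furthest apart for the members: H3 wild type at 6 h, replicate 2, held 4 occupied members. Several results that rest on it are given with and without it, and others are marked. H3 wild type at 4 h, replicate 2, was also low for its time, with 13 members.

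At the shift to sporulation medium nearly the whole respiratory chain carried Spp1 and Bre2. Spp1-myc at 0 h had a peak at 38 of 39 members, against 34% of all genes. Bre2-myc at 0 h had 35 (21% of genes), the PHD-deleted protein 36 (22%) and the CXXC-deleted protein 36 (25.3%). The 4 strains did not differ by more than 3 members at this time, although the number of peaks in their lists ranged from 1371 to 2119. The 6 libraries of the H3 strains at 0 h had a lowest count of 33, a median of 35 and a highest of 38 members, against 19.9% to 32.8% of genes. At 0 h, 35 members were occupied in all 4 myc strains (16% of genes) and 32 in all 6 libraries of the H3 strains (10.3% of genes).

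**Figure D1:**
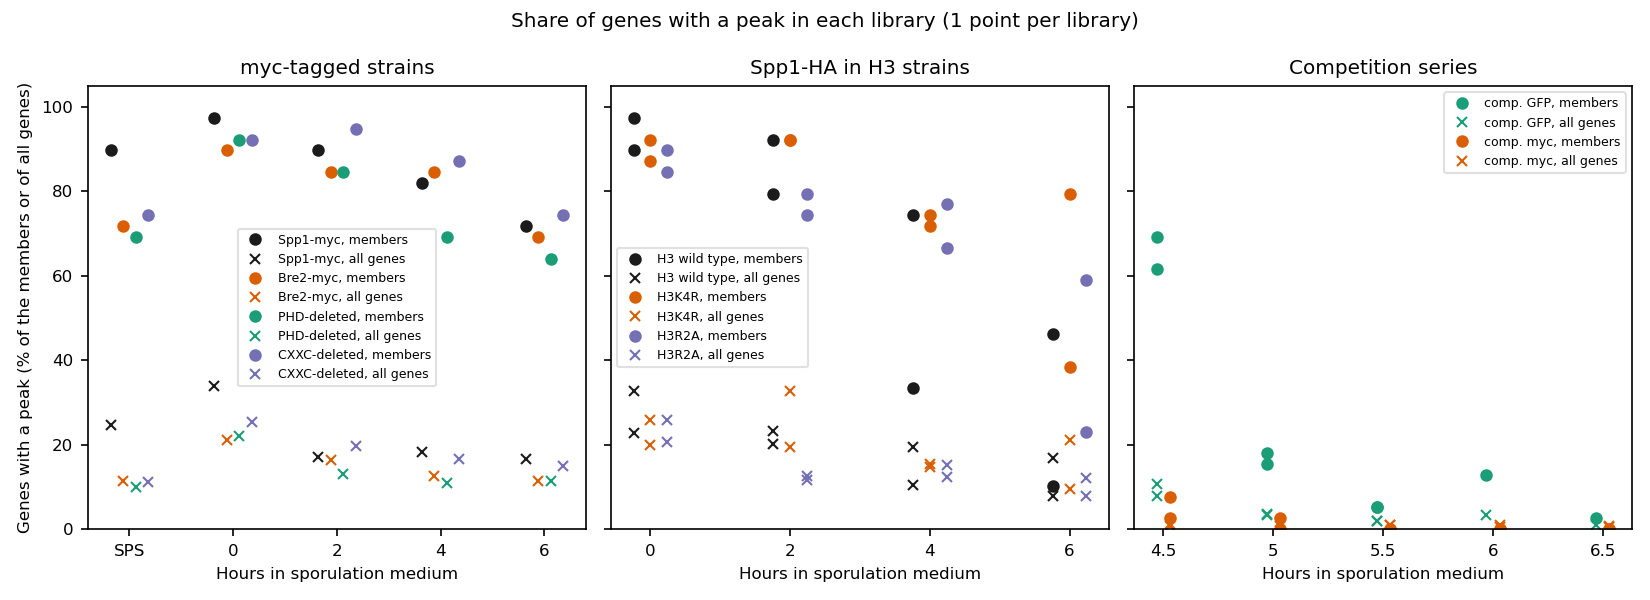
Percent of the 39 members (circles) and of all 6002 genes (crosses) with a peak in each library, by hours in sporulation medium; each point is 1 library, and the panels show the myc-tagged strains, Spp1-HA in the H3 strains and the competition series. In the myc strains the circles lie above the crosses at every stage, with 25 to 38 members occupied, and in the competition series the Spp1-myc circles reach 0.

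Members are short genes, with a median coding length of 462 bp against 1200 bp over all genes, and length bears on whether a peak is assigned. Among the 2304 genes from 180 bp up to 1000 bp, 24.7% to 37.2% were occupied at 0 h in the myc strains, and 29 to 32 of the 32 members in that length range. At 6 h the same genes were occupied at 12% to 17.7%, and 18 to 22 of these 32 members. Within the members, the 9 genes under 300 bp had a peak in a median of 33 libraries and the 7 genes of 1000 bp or more in a median of 45.

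In the myc strains the count of occupied members was lower at 4 and 6 h than at 0 h, and it was also lower in pre-sporulation medium. Spp1-myc had 35 members in SPS (24.7% of genes), 35 at 2 h (17.2%), 32 at 4 h (18.2%) and 28 at 6 h (16.6%). Bre2-myc had 28 in SPS (11.4%), 33 at 2 h (16.4%), 33 at 4 h (12.5%) and 27 at 6 h (11.3%). The PHD-deleted strain had 27 in SPS (9.96%), 33 at 2 h (12.9%), 27 at 4 h (10.9%) and 25 at 6 h (11.3%), and the CXXC-deleted strain 29 (11.1%), 37 (19.6%), 34 (16.6%) and 29 (14.9%). Each strain had its fewest members at 6 h, with the CXXC-deleted strain equal in SPS and at 6 h. With 1 library per time these differences have no replicate check. With every list of the myc strains reduced by score to 765 peaks, the count still fell from 30 at 0 h to 24 at 6 h in Spp1-myc, from 33 to 27 in Bre2-myc, from 31 to 24 in the PHD-deleted and from 33 to 28 in the CXXC-deleted strain, while the share of all genes was 12.6% to 12.8% at 0 h and 10.9% to 11.7% at 6 h. At equal length the counts at 2 h were 33 in Spp1-myc, 33 in Bre2-myc, 32 in the PHD-deleted and 34 in the CXXC-deleted strain, at or above those at 0 h in all 4.

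A core of 19 members had a peak in all 20 libraries of the myc strains, against 1.92% of genes. It held the 3 large subunits of the ATP synthase head, ATP1 (alpha), ATP2 (beta) and ATP3 (gamma), with ATP14, ATP17 and the inhibitor INH1. From complex IV it held COX6, COX8, COX13 and COX5A, and from complex III the core proteins COR1 and QCR2, the hinge protein QCR6, QCR7, cytochrome c1 (CYT1) and the Rieske iron-sulphur protein (RIP1). SDH2, the iron-sulphur subunit of complex II, and the dehydrogenases NDI1 and NDE1 completed it. Counted only over 0, 2, 4 and 6 h, 25 members kept a peak in Spp1-myc (6.18% of genes), 26 in Bre2-myc (5.35%), 24 in the PHD-deleted strain (4.92%) and 29 in the CXXC-deleted strain (7.01%). Of these, 21 did so in all 4 strains (3.28%).

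**Figure D2:**
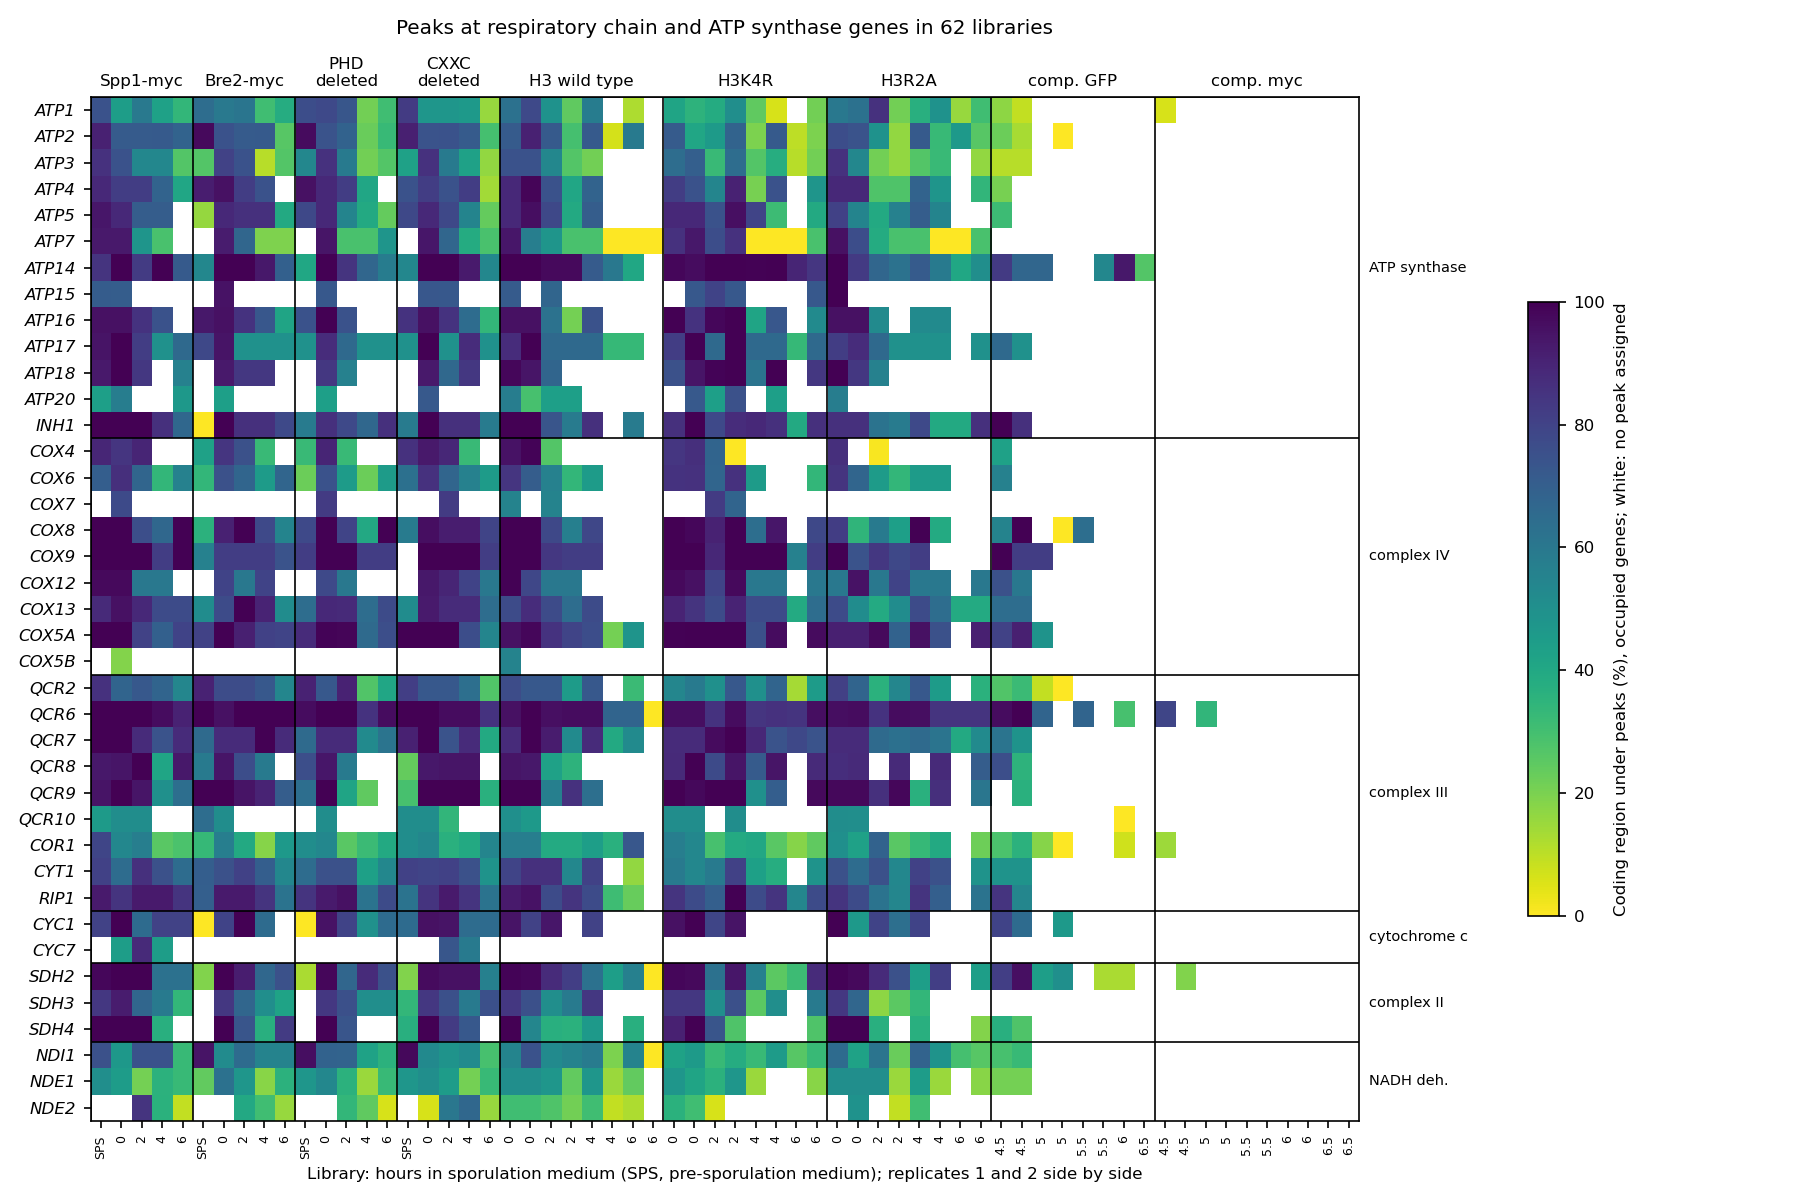
Map of the 39 members (rows, grouped by complex) in the 62 libraries (columns, by strain and hours in sporulation medium; SPS, pre-sporulation medium; comp., competition series). Colour gives the percent of the coding region under any peak, and white means that no peak was assigned. QCR6 is filled in 51 libraries and COX5B in 2.

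Among the ATP synthase genes, ATP14, for a subunit of the peripheral stalk region, had a peak in 49 libraries, the most of this complex. Peaks covered 100% of its coding region in all 4 myc strains at 0 h. At 6 h they covered 71.7% in Spp1-myc, 69.3% in Bre2-myc, 57.9% in the PHD-deleted and 53.6% in the CXXC-deleted strain. The values at 6 h did not overlap those at 0 h. ATP2, the catalytic beta subunit, was occupied in 46 libraries, and ATP1, ATP17 and INH1 in 44 each. In Spp1-myc the peak over ATP2 spanned chrX:647452-648702 at 0 h and chrX:647600-648650 at 6 h (sacCer3). The coding region of ATP2 runs from 647607 to 649142, so both peaks began before it and ended within it. Some other small subunits were at the lower end. ATP15 (epsilon) had a peak in 13 libraries, ATP20 (subunit g, of the dimer interface) in 15 and ATP18 (subunit i/j) in 25. In the myc strains ATP20 was occupied in 4 of 4 libraries at 0 h and in 1 of the 12 later ones, Spp1-myc at 6 h.

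Over the 13 ATP synthase genes the coding region under peaks averaged 84.2% ± 1.34 (SD, n = 4 strains) at 0 h, 62.5% ± 4.67 at 2 h, 46.8% ± 13.3 at 4 h and 29.6% ± 5.10 at 6 h in the myc strains. Over the 9 complex III genes it averaged 80.8% ± 0.891 at 0 h and 49.0% ± 11.1 at 6 h. For complex IV the values were 75.7% ± 8.13 and 41.8% ± 3.95, and for complex II 94.9% ± 1.73 and 46.1% ± 14.6. In each of these 4 complexes every library at 6 h lay below every library at 0 h. The NADH dehydrogenases, which are longer genes, had 36.4% ± 4.35 at 0 h, 52.0% ± 5.95 at 2 h and 27.7% ± 5.15 at 6 h, so here the highest mean was at 2 h. Over all genes the mean lay between 8.20% and 11.3% at 0 h and between 3.66% and 5.18% at 6 h.

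**Figure D3:**
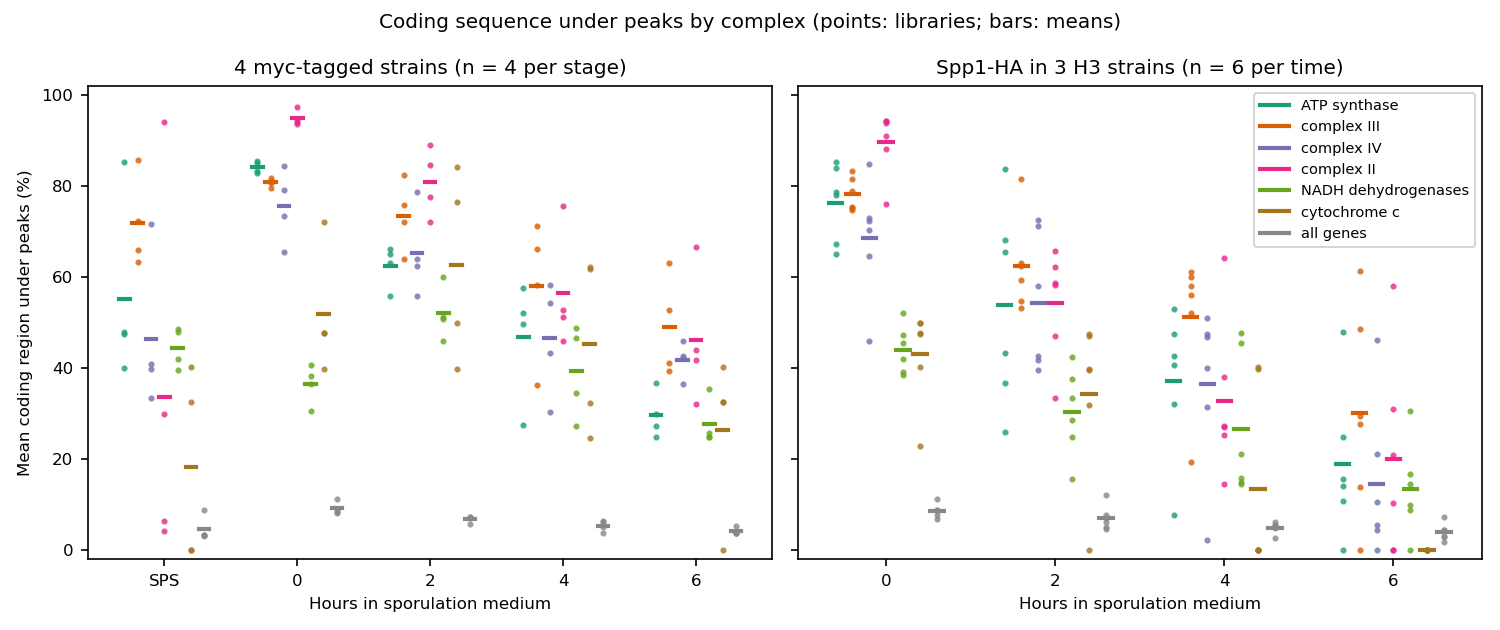
Mean percent of the coding region under peaks for each complex and for all genes, by hours in sporulation medium. Points are libraries and bars their means (n = 4 in the myc strains, n = 6 in the H3 strains). Complex II averaged 94.9% at 0 h in the myc strains, and cytochrome c was at 0% in the 6 libraries of the H3 strains at 6 h.

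In complex IV, the terminal oxidase, COX5A was occupied in 44 libraries, COX13 in 43 and COX8 in 42. COX13, a regulatory subunit, was covered over 95.4% of its coding region in Spp1-myc at 0 h and over 77.2% at 6 h, over 77.2% and 51.5% in Bre2-myc, over 88.5% and 77.2% in the PHD-deleted strain and over 92.8% and 64.4% in the CXXC-deleted strain. Each strain was lower at 6 h, while the ranges at the 2 times met at 77.2%. COX7, another small nuclear subunit, had a peak in 7 libraries, and COX4, a zinc-binding subunit, in 24. COX4 was occupied in all 4 myc strains in SPS and at 0 and 2 h, in 2 of 4 at 4 h, Bre2-myc and the CXXC-deleted strain, and in 0 of 4 at 6 h.

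Complex III, which moves electrons from ubiquinol to cytochrome c, held the member that was occupied in the most libraries. QCR6 was occupied in 51 of 62 libraries, COR1 in 48, and QCR2 and QCR7 in 45 each. In the myc strains peaks covered 85.4% to 100% of QCR6 at 4 and 6 h and 95.5% to 100% at 0 h, so the ranges overlapped. In Spp1-myc its peak lay at chrVI:224290-224890 at 0 h and chrVI:224345-224745 at 6 h, over a coding region from 224326 to 224769. COR1 had 53.6% to 57.4% of its coding region under peaks at 0 h and 28.2% to 54.7% at 6 h. Complex III also held QCR10, a small subunit with peaks in 17 libraries. QCR10 was occupied in all 4 myc strains at 0 h, in Spp1-myc and the CXXC-deleted strain at 2 h, and in none at 4 or 6 h.

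In complex II, which oxidises succinate, SDH2 was occupied in 50 libraries, and its membrane anchors SDH3 and SDH4 in 35 and 32. SDH2 in SPS was covered over 98.1% in Spp1-myc but over 18.9% in Bre2-myc, 12.6% in the PHD-deleted and 18.9% in the CXXC-deleted strain. At 0 h the 4 strains lay between 96.9% and 100%. The rise from SPS to 0 h was thus seen in 3 strains, and Spp1-myc was high at both stages. SDH3 and SDH4 were both occupied in SPS in Spp1-myc and the CXXC-deleted strain, and neither was in Bre2-myc or the PHD-deleted strain. Spp1-myc in SPS also had the longest list of the 4 (1782 peaks, against 795 to 910). With each list reduced to 765 peaks, SDH2 was occupied in SPS in all 4 strains, SDH3 in Spp1-myc and the CXXC-deleted strain, and SDH4 in Spp1-myc.

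Peaks at members were wide, and at 0 h most began near the start of the coding region. The start-side edge of member peaks lay a median of 45 bp inside the coding region over 1502 peaks. At 0 h it lay 6 bp inside in the myc strains and 13 bp inside in the H3 strains, and at 6 h 89 bp inside in both. Its quartiles at 6 h were 37.5 and 150 bp inside in the myc strains and 31 and 188 bp inside in the H3 strains. This edge was not measured at other genes. The width of member peaks had a median of 501 bp at 0 h in both sets of strains, against 301 bp (myc) and 251 bp (H3) for peaks at all genes. At 6 h it was 301 bp and 251 bp, against 201 bp for all genes in both sets. The midpoint of a member peak lay upstream of the coding start in 81 of 1502 cases, 5.39%, against 14% of all 55325 assignments and 16.2% of those at genes under 1000 bp. In the myc strains 18 of 140 member peaks were upstream in SPS, 0 of 146 at 0 h and 1 each of 142, 132 and 114 at 2, 4 and 6 h. In the H3 strains the counts were 8 of 223 at 0 h, 14 of 223 at 2 h, 15 of 180 at 4 h and 17 of 120 at 6 h, or 13 of 116 at 6 h without H3 wild type, replicate 2. Most of these were at ATP7, NDI1 and QCR6, so they do not describe members in general. ATP7 had an upstream peak in 5, 6, 6 and 6 H3-strain libraries at 0, 2, 4 and 6 h, and NDI1 in 1, 4, 3 and 4. QCR6 had one in 1, 3 and 5 libraries at 2, 4 and 6 h. Those of ATP7 and NDI1 were shared with a neighbouring gene. Midpoints sat at a median of 47.4% of the coding length in members, close to the 47.2% at genes under 1000 bp. Peaks share genes and libraries, so these values have no test.

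**Figure D4:**
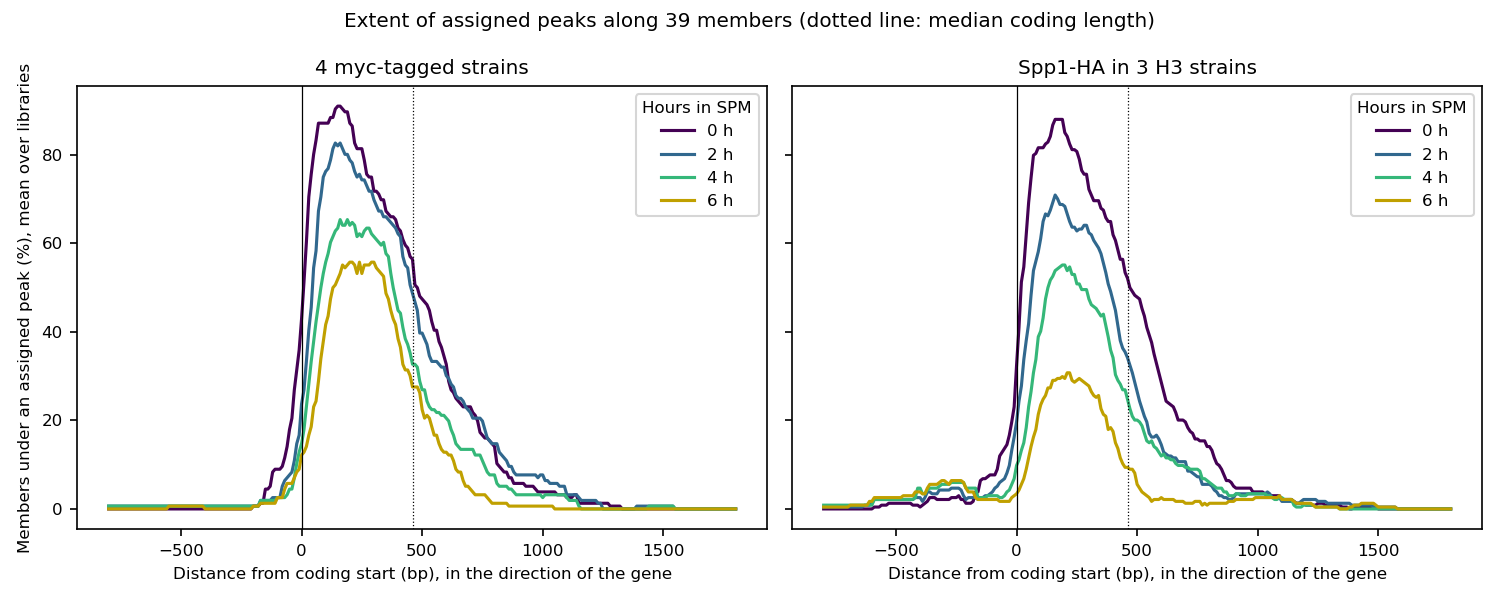
Percent of the 39 members that lie under an assigned peak at each distance from the coding start (bp, in the direction of the gene), averaged over the libraries of each time; left, the 4 myc strains, right, Spp1-HA in the 3 H3 strains; the dotted line marks the median coding length of 462 bp. The curves rise at the coding start and reach a lower maximum at each later time, and median peak width at members goes from 501 bp at 0 h to 301 bp (myc) and 251 bp (H3) at 6 h.

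In the H3 strains, which give the replicated time contrast, each strain had fewer occupied members at 4 and 6 h than at 0 h, and the replicates of a strain differed by 14 to 16 members at 6 h. H3 wild type had 38 and 35 members at 0 h (32.8% and 22.7% of genes), 36 and 31 at 2 h (23.3% and 20.1%), 29 and 13 at 4 h (19.4% and 10.5%) and 18 and 4 at 6 h (16.8% and 7.75%). H3K4R had 34 and 36 at 0 h (19.9% and 25.8%), 36 and 36 at 2 h (19.3% and 32.8%), 29 and 28 at 4 h (15.5% and 14.8%) and 15 and 31 at 6 h (9.43% and 21.2%). H3R2A had 35 and 33 (25.8% and 20.6%), 31 and 29 (11.7% and 12.6%), 30 and 26 (15.3% and 12.4%) and 9 and 23 (7.83% and 12.2%). The 6 libraries at 0 h had 33 to 38 members and the 6 at 6 h had 4 to 31, so these times did not overlap. At 6 h every member of the shorter replicate was also in the longer one, with 4, 15 and 9 members in both replicates of H3 wild type, H3K4R and H3R2A. The members occupied in all 6 libraries went from 32 at 0 h to 26 at 2 h (5.16% of genes), 11 at 4 h (3.65%) and 3 at 6 h (1.9%). The count at 4 h is held down by H3 wild type, replicate 2, with 13 members where the other libraries at 4 h had 26 to 30. Without H3 wild type at 6 h, replicate 2, the lowest count at 6 h was 9 and the members in every library at 6 h numbered 7 (3.42% of genes), namely ATP2, ATP7, ATP14, INH1, QCR6, QCR7 and NDI1.

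With every list of the H3 strains reduced by score to 642 peaks, members numbered 26 to 35 at 0 h and 4 to 21 at 6 h, while 10.2% to 10.9% and 7.21% to 10.4% of genes were occupied. At 6 h, 7 members had no peak in any H3-strain library (68.9% of genes): ATP20, COX4, COX7, COX5B, QCR10, CYC1 and CYC7. Of these, CYC1, the main cytochrome c, had been occupied in all 6 libraries at 0 h.

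The per-gene comparison of 0 h (6 libraries) with 2, 4 and 6 h (18 libraries) was a two-sided Fisher's exact test adjusted by Benjamini-Hochberg over 3501 genes, and called 259 genes (7.4%), 235 of them with more peaks at 0 h (6.71%). Of the 38 members tested, 1 passed: QCR10, with a peak in 6 of 6 libraries at 0 h and 1 of 18 later (Fisher's exact test, adjusted p = 0.00828). Its peak covered a lowest of 45.8%, a median of 50.7% and a highest of 50.8% of the gene at 0 h. The single later library was H3K4R at 2 h, replicate 2, at 50.8%. The groups therefore overlapped in that library alone. The share of members called is below the background, so the list is not singled out by the test. A member occupied in most later libraries cannot pass it, and 34 members had the higher share at 0 h, 4 an equal share and 0 a lower one, against 61.7% of all genes tested with a higher share at 0 h. The median difference in share was 0.222 for members and 0.167 for all genes tested.

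Another 3 members stood at an unadjusted p under 0.05, as did 17.9% of genes. COX4 had a peak in 5 of 6 libraries at 0 h and 4 of 18 later (Fisher's exact test, p = 0.0147, adjusted p = 0.119), and CYC1 and ATP18 in 6 of 6 and 7 of 18 each (p = 0.0162, adjusted p = 0.122). For COX4, peaks covered a lowest of 0%, a median of 86.5% and a highest of 99.2% at 0 h, and 0% in every library at 4 and 6 h. When only the coding region counted, COX4 passed (Fisher's exact test, adjusted p = 0.0395). With the lower-scoring peaks of every list removed, 6 members passed: ATP16, COX4, COX12, QCR10, SDH3 and SDH4, against 7.08% of 2260 genes. With lists of equal length COX4, QCR10 and SDH4 passed, against 4.6% of genes. Leaving out replicate 1 or 2 of any of the 3 strains lowered the count of genes to between 107 and 147, and QCR10 passed each time. Without H3 wild type at 6 h, replicate 2, 204 genes passed and QCR10 had an adjusted p of 0.0101.

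Whether the histone mutations altered Spp1 at these genes was compared with 8 libraries against 8. For H3K4R, in which lysine 4 cannot be methylated, 0 of 3382 genes passed (0%; Fisher's exact test, two-sided, Benjamini-Hochberg adjusted) and 197 (5.82%) had an unadjusted p under 0.05. Of the 38 members tested, 0 passed at either level. The share of libraries with a peak was higher in H3K4R for 26 members, lower for 4 and equal for 8, with a median difference of 0.125 for members and 0 for all genes tested. These counts include H3 wild type at 6 h, replicate 2, where 4 members were occupied, which lowers the wild-type share of the others. Without it ATP3, COX9 and COX13, at 8 H3K4R and 5 wild-type libraries, stay higher in H3K4R. ATP2 and ATP14, at 8 and 7, become equal, and COX5A, at 7 and 7, becomes lower. The number of members in each class was not counted without it. ATP18 had a peak in 7 of 8 H3K4R libraries and 3 of 8 wild-type libraries, and NDE2 in 3 and 7 (Fisher's exact test, both p = 0.119, adjusted p = 1). COX9, COX13 and ATP3 each had a peak in 8 H3K4R and 5 wild-type libraries (Fisher's exact test, p = 0.2, adjusted p = 1).

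For H3R2A, which shares the wild-type libraries, 0 of 3183 genes passed (0%) and 87 (2.73%) had an unadjusted p under 0.05 by the same Fisher's exact test. Of 38 members, 0 passed at either level. The share was higher in H3R2A for 17, lower for 8 and equal for 13, with a median difference of 0 for members and -0.125 for all genes tested. These counts include the same low wild-type library. Without it, members with equal counts that had no peak there, such as ATP16 and SDH3 at 5 and 5 libraries, are lower in H3R2A. The excess of higher over lower members therefore rests on that library. NDE2 again had a peak in 3 of 8 mutant and 7 of 8 wild-type libraries (Fisher's exact test, p = 0.119, adjusted p = 1), and COX13 in 8 and 5 (p = 0.2, adjusted p = 1). Without H3 wild type at 6 h, replicate 2, NDE2 stood at 7 of 7 wild-type libraries and an unadjusted p of 0.0256 in both comparisons (Fisher's exact test), with 0 genes passing after adjustment. The lowest p in each comparison was 0.000155, for genes that are no members, and Fisher's test on 8 against 8 libraries can give none lower. The lowest adjusted p was 0.225 for H3K4R and 0.495 for H3R2A. With so few libraries, 0 genes passing does not show that no gene changed.

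In the competition series members were occupied by Spp1-GFP at 4.5 h and seldom afterwards, and in few Spp1-myc libraries. Spp1-GFP had 27 and 24 members at 4.5 h (7.85% and 10.7% of genes), 7 and 6 at 5 h (3.67% and 3.4%), 2 and 2 at 5.5 h (1.8% and 1.85%), 5 at 6 h (3.32%) and 1 at 6.5 h (1.08%). Spp1-myc had 3 and 1 at 4.5 h (1.17% and 0.683%), 1 and 0 at 5 h (1.72% and 0.75%) and 0 in the other 6 libraries (0.5% to 1.02%). With every list reduced to 87 peaks, Spp1-GFP had 6 and 4 members at 4.5 h, 3 and 1 at 5 h, 1 and 1 at 5.5 h, 1 at 6 h and 0 at 6.5 h. Spp1-myc then had 2 and 1 at 4.5 h, 1 and 0 at 5 h and 0 later, so the counts lay closer together than in the full lists. At 4.5 h the reduced lists occupied 1.42% and 1.38% of genes for Spp1-GFP and 0.7% and 0.566% for Spp1-myc. At 5 h they occupied 1.32% and 1.27% against 0.933% and 0.55%. The reduction also counted peaks on chrXVII, so lists of equal length need not hold equal numbers of peaks that could carry a gene. Over all its libraries Spp1-GFP had a peak at 29 members (13.9% of genes) and Spp1-myc at 4 (4.08%). The 4 were ATP1, QCR6, COR1 and SDH2, each in 1 or 2 libraries. From 5 h on, 11 members had a Spp1-GFP peak in at least 1 library (7.43% of genes), among them ATP14 and SDH2, in 4 libraries each.

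At 4.5 h the Spp1-GFP peaks on members began a median of 63.5 bp inside the coding region and had a median width of 251 bp, where the H3 strains at 4 h had 78 bp and 251 bp. SDH2 was covered over 81.3% and 95.8% of its coding region in the 2 libraries, COX5A over 80.3% and 91.1% and QCR6 over 96.6% and 100%. The 10 members with no Spp1-GFP peak at any time were ATP7, ATP15, ATP16, ATP18, ATP20, COX7, COX5B, CYC7, SDH3 and NDE2. The per-gene comparison of 6 Spp1-GFP with 6 Spp1-myc libraries at 4.5, 5 and 5.5 h called 0 of 870 genes (0%; Fisher's exact test, adjusted), with 29 (3.33%) at an unadjusted p under 0.05. Fisher's test on 6 against 6 libraries can give no p below 0.00216, and the lowest adjusted p was 0.171. Of 28 members tested, 0 passed at either level, and all 28 had the higher share in Spp1-GFP, as did 87.2% of genes tested. ATP14, COX8 and QCR2 each had a peak in 4 and 0 libraries (Fisher's exact test, p = 0.0606, adjusted p = 0.811), and SDH2 in 5 and 1 (p = 0.0801, adjusted p = 0.86). Spp1-GFP lists were longer than Spp1-myc lists, with a median of 252.5 against 110 peaks. With every list reduced by score to 87 peaks, 0 genes passed, 5 had an unadjusted p under 0.05 and 0 of these were members.

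Paralog pairs within the chain differed in how often they carried a peak. COX5A and COX5B encode alternative forms of one complex IV subunit, the first made in air and the second when oxygen is low. COX5A was occupied in 20 of 20 libraries of the myc strains and 21 of 24 of the H3 strains, COX5B in 1 and 1. The 2 COX5B peaks were at 0 h, in Spp1-myc, over 18.6% of the gene, and in H3 wild type, replicate 1, over 55.3%. CYC1 encodes the main cytochrome c and CYC7 the isoform known from low oxygen and stress. CYC1 was occupied in 19 of 20 and 13 of 24 libraries, CYC7 in 5 and 0. Its 5 peaks were in Spp1-myc, over 44.2% of the gene at 0 h, 88.0% at 2 h and 44.2% at 4 h, and in the CXXC-deleted strain, over 73.4% at 2 h and 58.8% at 4 h. CYC7 had no peak in Bre2-myc or the PHD-deleted strain at any stage.

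**Figure D5:**
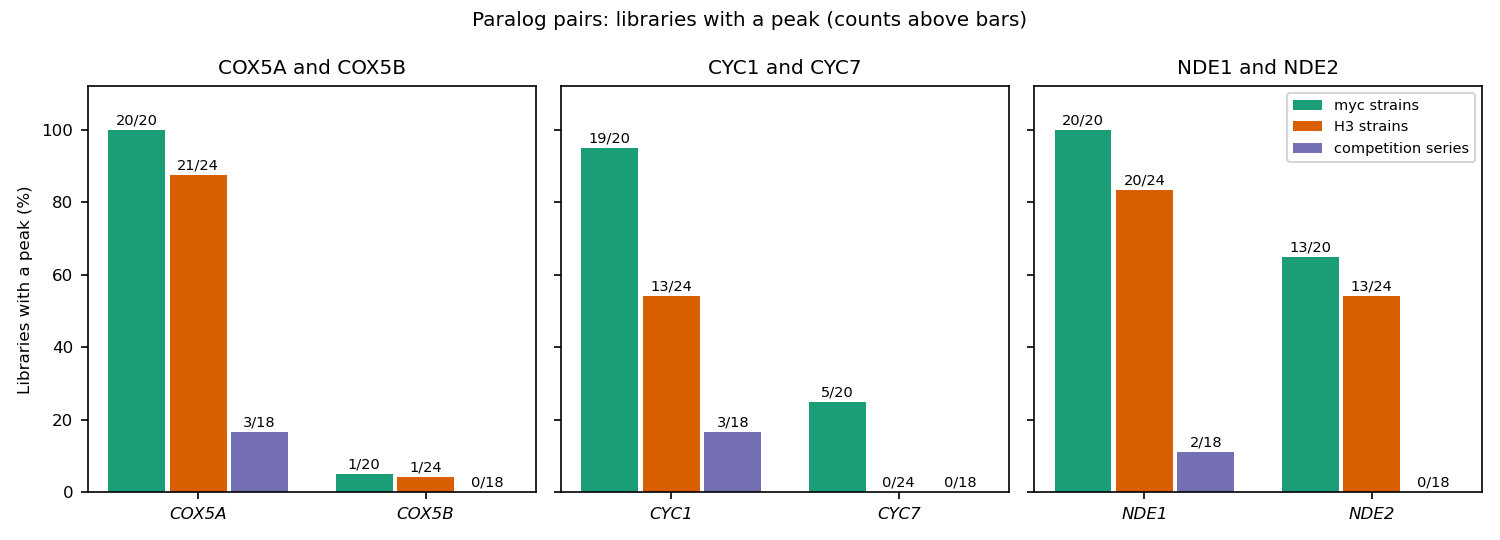
Percent of libraries with a peak for the 3 paralog pairs in the myc strains, the H3 strains and the competition series; counts of libraries stand above the bars, which start at 0. COX5A reaches 20 of 20 libraries and COX5B 1 of 20 in the myc strains, and NDE2 stays below NDE1 in each set.

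NDE1 and NDE2 both face the space between the mitochondrial membranes and oxidise cytosolic NADH. NDE1 had a peak in 42 libraries and NDE2 in 26. In 3 of the 4 myc strains NDE2 had its first peak at 2 h. In Spp1-myc its coverage was 0% in SPS and at 0 h, 84.9% at 2 h, 36.0% at 4 h and 9.22% at 6 h. In Bre2-myc the values at 2, 4 and 6 h were 39.7%, 30.6% and 15.3%, and in the PHD-deleted strain 33.6%, 24.5% and 6.17%, again after 0% in SPS and at 0 h. In the CXXC-deleted strain a peak over 6.17% was already there at 0 h, with 60.5%, 66.6% and 15.3% later. All 4 strains were thus highest at 2 or 4 h and low at 6 h. NDE2 was the only member of 39 with a peak at 4 and 6 h and none in SPS or at 0 h, and it was so in Spp1-myc (2.2% of genes), Bre2-myc (1.37%) and the PHD-deleted strain (1.3%). At 0 h in the H3 strains it was 30.6% in both libraries of H3 wild type and 36.0% and 30.6% in H3K4R. In H3R2A replicate 1 had no peak at 0 or 2 h and 30.6% at 4 h, while replicate 2 had 48.9% at 0 h and 9.22% at 2 h, so the replicates differed in order. At 6 h NDE2 had a peak in 1 of the 6 libraries, over 12.3% in H3 wild type, replicate 1.

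Some member peaks lay between a member and a neighbour, and some assignments rest on them. Of the 1502 member peaks 129 were also assigned to another gene. ATP7, a stalk subunit of the ATP synthase, shared all of its 55 peaks, 32 with HCS1, whose upstream window covers it, and 23 with PUT3, the divergent neighbour. The 23 peaks on the PUT3 side lay within chrXI:408155-408412, at a median of 295 bp upstream of ATP7 with a median width of 151 bp. They were in 23 of 24 libraries of the H3 strains, all but H3 wild type at 0 h, replicate 1, and in 0 of 20 libraries of the myc strains and 0 of 18 of the competition series. Peaks within ATP7 were in 16 of 20 and 16 of 24 libraries. NDI1 likewise had an upstream peak, shared with YML119W and within chrXIII:30018-30437, in 12 of 24 libraries of the H3 strains and 0 of 20 of the myc strains. The H3 strains differ from the myc strains in tag, antibody, source of H3 and markers, and these cannot be told apart here.

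These upstream peaks matter for the members that seemed constant. ATP7, QCR6 and NDI1 were the 3 members with a peak in all 24 libraries of the H3 strains (0.95% of genes). Peaks with the midpoint in the coding region were in 16, 18 and 23 of the 24 libraries for ATP7, QCR6 and NDI1. Without H3 wild type at 6 h, replicate 2, ATP2, ATP14 and QCR7 joined them, which made 6 members in 23 of 23 libraries (1.47% of genes). In H3 wild type at 6 h, replicate 2, the 4 occupied members ATP7, QCR6, SDH2 and NDI1 were all occupied through upstream peaks, and 0% of the coding sequence of any member was under an assigned peak. Replicate 1 of the same group had 18 members. ATP15 shared all of its 13 peaks with MDL2, and COX9 27 of 40 with CBS1 or IDP1, so the count for these genes is uncertain.

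Genes that serve the chain without being its subunits were occupied in differing shares. In Spp1-myc at 0 h, 14 of 16 genes of the TCA cycle, which feeds it NADH and succinate, had a peak, and so did 11 of 17 carriers of the mitochondrial membranes. Of the 45 assembly and translation factors, which build the complexes, 14 had a peak, and of the 9 ubiquinone synthesis genes found in the reference 2, against 34% of genes. Of 8 respiratory regulators 7 had one. This list was the longest of all, with 2119 peaks. At 0 h Bre2-myc, the PHD-deleted and the CXXC-deleted strain had 4, 5 and 4 regulators, against 21%, 22% and 25.3% of genes. They had 15 TCA cycle genes each, 9, 10 and 10 carriers, 5, 9 and 13 assembly factors, and 0, 0 and 1 ubiquinone genes. At 6 h Spp1-myc had 10 TCA cycle genes, 8 carriers, 9 assembly factors, 0 ubiquinone genes and 4 regulators, against 16.6% of genes. In the 0 h comparison of the H3 strains, 2 assembly factors passed and both had more peaks at 0 h, of 26 tested. Among 8 regulators 2 passed with more peaks at 0 h and 1 with fewer, among 15 carriers 1 and 1, and among 16 TCA cycle and 4 ubiquinone genes 0 passed, with 1 and 0 at an unadjusted p under 0.05 (Fisher's exact test, adjusted over all 3501 genes). In the other 3 comparisons 0 genes of these lists passed, with 1 assembly factor at an unadjusted p under 0.05 for H3K4R, 0 genes for H3R2A, and 1 assembly factor and 1 TCA cycle gene for Spp1-GFP.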

How the data were processed

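Per the submitters' processing notes the authors used the sacCer3 build, BWA and deepTools, with no versions. The sources used here do not name the peak caller or its control. Each library has 1 list, deposited by the authors, of peaks with a position, a width in bp and a score, a fraction from 0.5 to 1 with no stated normalization, used here only to rank peaks within a list. Genes came from RefSeq R64 with strand read from the locus tag, and coding regions run from start to stop codon with introns. Each peak was assigned to every gene whose window held its midpoint. Coverage is the percent of a coding region under any deposited peak, whether or not that peak was assigned to the gene.

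Occupied libraries were compared per gene by Fisher's exact test, with p-values adjusted (Benjamini-Hochberg) over genes with at least 1 peak, threshold 0.05 (Python 3.11.15, SciPy 1.17.1, statsmodels 0.14.6). On simulated data with 200 changed genes among 6002 the test recovered 91% (H3K4R), 92% (H3R2A), 99% (0 h) and 70% (competition) of the changed genes. Each changed gene had a peak in nearly every library of 1 group and in almost none of the other. Smaller changes and effects of time were not simulated, so recovery of changes of the size seen at members is unknown. Named in detail were members passing a test or at an unadjusted p under 0.05, the 3 most often occupied of each larger complex, and paralog pairs; other members were named after their values were seen, as were the comparisons of peaks upstream and of genes by length. The members and lists were chosen with earlier results of these data known. Alternatives were other windows, overlap, shorter lists, left-out replicates and strata. Leaving out H3 wild type at 6 h, replicate 2, counting only peaks of 1 gene and the complex II genes at equal list length were chosen after seeing the data. In every test, libraries of different times were pooled within a group and each was counted as independent. Libraries of a strain at different times may come from the same culture, which can overstate the replication behind a p-value.

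Spp1 in the H3 strains is described as myc-tagged in part of the labels; genotype and antibody (HA) were followed.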

Additional observations from a re-analysis of the deposited data

Results flagged for a closer look

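NDE2, for an external NADH dehydrogenase, changed in opposite directions in different strains between 0 h and 6 h. It gained a peak in 3 strains, Spp1-myc, Bre2-myc and the PHD-deleted strain, each with 1 library per time. It lost its peak in both libraries of 1 strain, H3K4R, where both had a peak at 0 h and neither had one at 6 h. Over all H3 strains NDE2 had a peak in 5 of 6 libraries at 0 h and 1 of 6 at 6 h, so the fall was not particular to H3K4R. The strains that gained a peak differ from the H3 strains in tag, antibody, source of H3 and markers, which cannot be told apart. The difference between strains was not tested.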

How the results depend on the processing

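Over 166 pairs of a result and an alternative setting, 148 kept their direction and side of the threshold, or moved little, 15 moved and 3 newly passed. These 3 were COX4 at 0 h against later times, with adjusted p by Fisher's exact test of 0.0395 (coding region only), 0.0218 (the better-scoring part of each list) and 0.0265 (lists reduced by score to the shortest). QCR10 passed in all 15 alternatives, with adjusted p from 0.0073 to 0.0435. The 148 pairs include 13 for H3K4R, 13 for H3R2A and 12 for Spp1-GFP against Spp1-myc, in which 0 genes passed under either setting.

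The count of genes called at 0 h against later times was 259, and became 160 with the better-scoring part of each list and 98 with lists reduced to the shortest. Without each replicate of a strain in turn it ranged from 107 to 147, a contrast with fewer libraries. With the better-scoring part, the mean count of occupied members per library went from 31.9 to 25.3 in the myc strains and from 4.39 to 2.56 in the competition series, and persistent members from 26 to 16 in Bre2-myc and from 29 to 19 in the CXXC-deleted strain. With lists reduced to 87 peaks the competition series had 1.17 members. Measured at the peak end nearest the coding start instead of the midpoint, the median position went from 49.1% to 6.11% of the coding length in the myc strains and from 46.9% to 6.81% in the H3 strains.

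Replicate numbers in the labels were checked for pairing by correlating the deviations of same-numbered libraries of the compared groups at each time. For H3K4R against H3 wild type the correlations lay between -0.106 and -0.0206, and in the competition series between -0.037 and -0.0154. For H3R2A against H3 wild type they were 0.243 at 0 h, 0.0825 at 2 h, 0.14 at 4 h and -0.0299 at 6 h. Pairing of same-numbered libraries across times was not tested. With the replicate number as a block, 206 genes passed at 0 h against later times, with QCR10 at an adjusted p of 0.0121, and 0 in the other 3 comparisons. These 3 gave 0 genes under every alternative run. Where a replicate was left out, fewer libraries remained and the lowest possible p was higher, so 0 genes there adds little. For Spp1-GFP against Spp1-myc, SDH2 had an unadjusted p of 0.0476 (Fisher's exact test) without Spp1-GFP replicate 1 and without Spp1-myc replicate 2.

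Unknown read depth, 1 library per time in the myc strains and lists of unequal length limit these counts. A gene without a peak fell below the authors' calling threshold and is not shown to be unbound. Scores cannot be compared between lists.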
